A study of Homo sapiens with 12 samples.

Results

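Solute carriers (SLC) are membrane proteins that move ions, nutrients and metabolites across the plasma membrane and organelle membranes. The genes described here are the 173 of 14438 genes in the RNA-Seq table whose symbol has the form SLC, a family number, A and a member number, without the mitochondrial SLC25 family. They fall into 44 SLC families, and all 173 were measured in every line and tested. They were picked by gene symbol and not by a measured value, but with earlier results of these data known.

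SLC families are defined by sequence, and members of a family usually carry related substrates: SLC2 carries sugars, SLC16 carries lactate, pyruvate and related acids, SLC7 carries amino acids, and SLC4 and SLC9 set intracellular pH by moving bicarbonate or protons. Most work as exchangers, cotransporters or uniporters, and some need a partner, as the SLC7 light chains need the SLC3A2 heavy chain. In the kidney, SLC proteins of the tubule epithelium recover solutes from the filtrate.

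The cells were HEK293T, an established human embryonic kidney line, made to carry 1 of 4 forms of EZH2, the subunit of Polycomb repressive complex 2 that methylates lysine 27 of histone H3. The forms were wild type (EZH2 WT, the WT line), the gain-of-function (GOF) mutants EZH2 Y641F and EZH2 A677G (the Y641F and A677G lines), and the loss-of-function double mutant EZH2 H689A/F667I (the LOF line). Each was brought in by lentivirus and kept by blasticidin selection in cells that retained their own EZH2 gene, and the study describes the selection as a step towards monoclonal populations. Each form is thus represented by 1 line with 3 replicates, so differences between lines and between mutations cannot be told apart, and the p-values measure the spread between these replicates, which may be technical. No line without an introduced EZH2 was used here.

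Libraries held 32137700 to 44562413 counts, and the 173 members took 0.727% to 0.763% of them. EZH2 itself was at 158 ± 4.32 CPM (counts scaled to a common library size with TMM factors, mean and SD, n = 3) in WT, 218 ± 9.61 in Y641F, 173 ± 8.57 in A677G and 208 ± 2.03 in LOF. Against WT its log2 fold changes were 0.46, 0.13 and 0.40 (edgeR adjusted p = 1.57e-10, 0.0294 and 1.15e-07), and the reads do not separate introduced from endogenous EZH2. Replicate 1 of Y641F stood apart on the first principal component of all genes, at 5.60 against 17.7 and 17.1 in its 2 other replicates. Of 8 genes listed as features of this line (keratins, neurofilaments, vimentin, N-cadherin and kidney-lineage factors), 7 were tested, and 3 fell and 1 rose in each GOF line. In LOF 2 fell and 0 rose. Of all genes, 5.59% fell in Y641F, 6.48% in A677G and 0.161% in LOF. The 3 that fell were not all the same in the 2 GOF lines, and the keratins were not called against WT. The summed level of the 7 was 733 to 759 CPM in WT, 604 to 646 in Y641F, 569 to 608 in A677G and 674 to 691 in LOF. Of 14 markers of blood, endothelium, fibroblasts and mature nephron, 2 were tested (COL1A1 and LRP2), summing to 28.96 to 32.3, 22.4 to 32.4, 22.4 to 24.7 and 28.6 to 35.97 CPM in the same order. Their part in the results below was not tested, and in such bulk RNA fewer cells of a kind and less RNA per cell cannot be told apart.

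Calls among solute carriers were mostly falls in both GOF lines, as they were among all genes: 69.6% of member calls were lower in Y641F and 71.4% in A677G, beside 72.8% and 75.8% of all calls. In Y641F, 16 of 173 members fell and 7 rose against WT (edgeR quasi-likelihood test, Benjamini-Hochberg adjusted p under 0.05 over 14263 genes), which is 9.25% and 4.05% of the members beside 5.59% and 2.09% of all genes tested. In A677G, 20 members fell and 8 rose, or 11.6% and 4.62% beside 6.48% and 2.07% of all genes. The median log2 fold change of the members was -0.014 and -0.040 in these 2 comparisons, beside 0.0025 and 0.0045 over all genes. Both comparisons share the WT samples. No member was called in opposite directions in the 2 GOF lines, and 137 members were called in no comparison with WT.

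How many members were called depended on single libraries, as did the calls among all genes. Without replicate 2 of Y641F the fallen members in that line were 10, and without its replicate 1, which stood apart, they were 21. Of all genes, 658 and 943 fell there in these fits, beside 797 in the reported fit. Without replicate 1 or 2 of A677G the fallen members there were 13, and 714 and 688 of all genes fell, beside 924 in the reported fit. The risen members in Y641F were 4 without replicate 1 or 2 of WT and 2 without replicate 3 of Y641F. Risen genes among all genes were then 157, 135 and 209, beside 298 in the reported fit. The risen members in A677G numbered from 2 to 5 without any one replicate of WT or A677G, and the risen genes among all genes from 142 to 230, beside 295. In every one of the 23 other fits, SLC1A1, SLC4A4, SLC9A2, SLC16A7, SLC16A9 and SLC27A6 were called lower in both GOF lines. These fits share most samples and are not independent, and some could differ little from the reported fit, as described in the closing remarks.

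**Figure D1:**
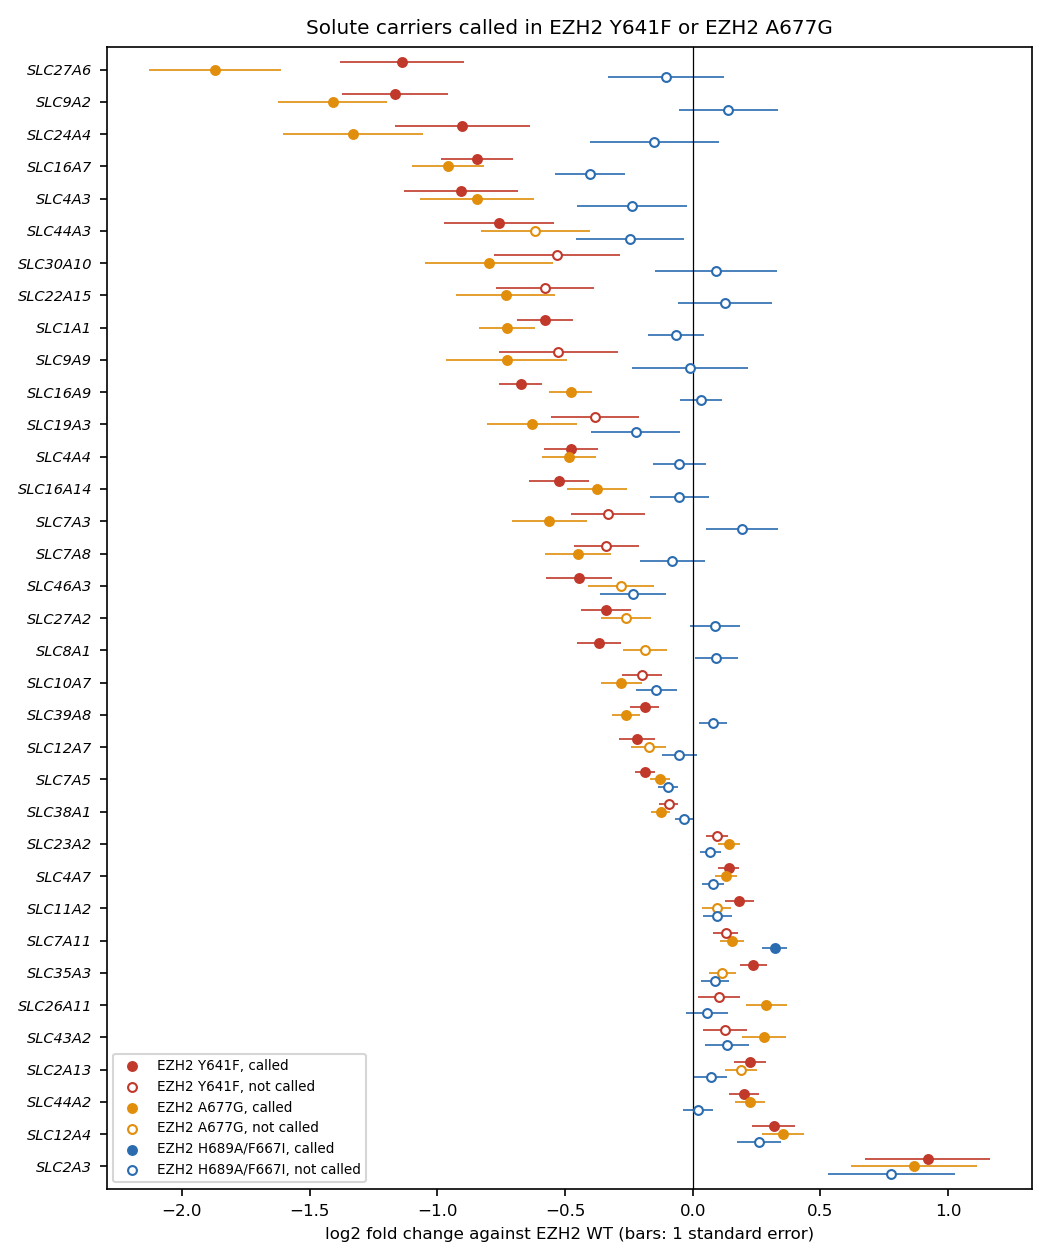
Log2 fold change against WT (horizontal axis) of 35 solute carriers called in Y641F or A677G, ordered by the mean of the 2 GOF lines. Points are edgeR estimates with bars of 1 standard error, filled where the adjusted p was under 0.05; 24 members lie to the left in a GOF line and 11 to the right, and the LOF (H689A/F667I) points are filled for SLC7A11 alone.

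Among called members, the 3 with the largest falls by the mean of both GOF lines move protons, fatty acids and calcium. SLC9A2, a plasma membrane sodium-proton exchanger (chr2:102619553-102711355 in GRCh38), was at 4.06, 4.63 and 3.56 CPM in the WT replicates, 2.09, 1.08 and 2.27 in Y641F, 1.57, 1.82 and 1.21 in A677G and 4.57, 4.07 and 4.9 in LOF. Every GOF replicate was below every WT and LOF replicate. Its log2 fold change was -1.16 ± 0.207 (SE, adjusted p = 0.000159) in Y641F and -1.41 ± 0.212 (SE, adjusted p = 1.13e-05) in A677G by edgeR, and 0.14 ± 0.193 (SE, adjusted p = 0.894) in LOF.

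SLC27A6, a fatty acid transport protein (chr5:128538013-129033642), was at 2.57, 2.38 and 2.47 CPM in WT, 1.38, 0.84 and 1.14 in Y641F, 0.628, 0.737 and 0.658 in A677G and 2.22, 1.83 and 2.89 in LOF. The GOF replicates did not overlap with the others, and those of A677G were also all below those of Y641F. The log2 fold changes were -1.14 ± 0.241 (SE, adjusted p = 0.00142) and -1.87 ± 0.258 (SE, adjusted p = 2.62e-06) by edgeR. The difference between the 2 GOF lines, 0.73 on the log2 scale (95% interval 0.19 to 1.27), did not pass the adjusted test (edgeR adjusted p = 0.592).

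SLC24A4, a potassium-dependent sodium-calcium exchanger (chr14:92322581-92501481), was at 2.52, 2.87 and 2.05 CPM in WT, 1.21, 0.762 and 1.99 in Y641F, 0.897, 1.03 and 1.04 in A677G and 2.06, 2.98 and 1.64 in LOF. Both GOF lines were below WT in all replicates, with replicate 3 of Y641F the closest to WT and above the lowest LOF replicate. The edgeR log2 fold changes were -0.90 ± 0.265 (SE, adjusted p = 0.0266) and -1.33 ± 0.275 (SE, adjusted p = 0.000962). The call in Y641F was lost without replicate 1 or 2 of either WT or Y641F, where the adjusted p reached 0.159.

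Promoter sequences are shown for these 3 carriers, for SLC16A14, which shares with SLC4A3 the fewest CG dinucleotides among the members that fell in both GOF lines, and for SLC12A4, a carrier that rose in both. Each is the RefSeq window of 300 bases (GRCh38.p14, 250 before and 50 after an annotated start, printed 5′ to 3′ on the gene's strand), with CG dinucleotides in capitals because CpG-rich promoters are the class at which Polycomb repressive complex 2 is known to act. The windows are chr2:102619303-102619602 on the plus strand for SLC9A2, chr5:128965238-128965537 on the plus strand for SLC27A6, chr14:92322331-92322630 on the plus strand for SLC24A4, chr2:230068875-230069174 on the minus strand for SLC16A14 and chr16:67968588-67968887 on the minus strand for SLC12A4.
SLC9A2: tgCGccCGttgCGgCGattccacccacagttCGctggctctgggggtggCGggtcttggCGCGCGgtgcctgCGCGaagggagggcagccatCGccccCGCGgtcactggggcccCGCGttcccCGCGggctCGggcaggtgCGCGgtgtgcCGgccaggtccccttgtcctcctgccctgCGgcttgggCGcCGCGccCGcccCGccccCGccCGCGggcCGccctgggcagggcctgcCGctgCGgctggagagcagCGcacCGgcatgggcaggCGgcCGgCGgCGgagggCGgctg
SLC27A6: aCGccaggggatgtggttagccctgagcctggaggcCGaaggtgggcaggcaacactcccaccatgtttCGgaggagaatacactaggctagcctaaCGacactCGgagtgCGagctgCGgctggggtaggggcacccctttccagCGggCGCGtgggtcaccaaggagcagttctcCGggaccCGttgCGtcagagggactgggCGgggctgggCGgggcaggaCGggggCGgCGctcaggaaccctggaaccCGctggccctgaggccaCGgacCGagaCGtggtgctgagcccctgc
SLC24A4: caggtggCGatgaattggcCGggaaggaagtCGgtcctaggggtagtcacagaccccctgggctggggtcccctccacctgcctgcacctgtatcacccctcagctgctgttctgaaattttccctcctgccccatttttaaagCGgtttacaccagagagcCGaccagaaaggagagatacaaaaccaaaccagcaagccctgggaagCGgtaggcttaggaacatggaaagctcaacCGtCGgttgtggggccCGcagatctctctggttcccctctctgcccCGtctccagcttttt
SLC16A14: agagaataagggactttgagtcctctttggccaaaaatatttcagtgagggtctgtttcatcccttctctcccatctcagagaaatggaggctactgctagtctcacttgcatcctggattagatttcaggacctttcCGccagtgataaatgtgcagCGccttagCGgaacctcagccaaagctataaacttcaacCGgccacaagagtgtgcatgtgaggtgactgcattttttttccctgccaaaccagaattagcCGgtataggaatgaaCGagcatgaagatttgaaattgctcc
SLC12A4: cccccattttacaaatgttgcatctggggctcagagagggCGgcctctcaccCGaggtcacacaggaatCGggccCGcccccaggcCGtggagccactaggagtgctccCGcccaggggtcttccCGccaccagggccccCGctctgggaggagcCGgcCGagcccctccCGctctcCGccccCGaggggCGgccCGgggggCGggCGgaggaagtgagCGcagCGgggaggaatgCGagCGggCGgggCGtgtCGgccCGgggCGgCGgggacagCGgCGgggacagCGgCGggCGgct
The windows hold 41 CG in SLC9A2, 22 in SLC27A6, 10 in SLC24A4, 6 in SLC16A14 and 32 in SLC12A4. The median was 14 over all 35116 RefSeq promoter windows, which were not limited to 1 per gene or to the genes measured here. CG reads the same on both strands. A promoter was taken as CpG-rich where the observed to expected ratio of CG was at least 0.6 and GC was at least 50%, which held for SLC9A2, SLC27A6 and SLC12A4 but not for SLC24A4 and SLC16A14. The SLC24A4 window lies at a start 584 bases from the canonical one, and the 4 others at the canonical start. The CpG-rich criterion was met by 46.9% of all windows and by 80.0% of the 140 members that had an entry. Each member had 1 window, the nearest to its canonical start, so these 2 shares are of unlike sets and cannot be compared directly. The share was 82.6% of the 23 with an entry among the members that fell in either GOF line, 72.7% of the 11 that fell in both, and 78.2% of the 110 among the members called in neither. Of the 11 risen members 7 had an entry, and all 7 met it, too few for a comparison. None of these shares was tested.

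Most carriers of organic acids, lipids and drugs did not pass the test. Of 31 members of this class, 5 fell in Y641F and 7 in A677G (all genes, 5.59% and 6.48%), with median log2 fold changes of -0.15 in each. By edgeR 0 rose in either line, with 2 and 1 higher at an unadjusted p under 0.05 (7.85% and 8.13% of all genes), and the exact test and DESeq2 each called 1 higher in Y641F and 0 in A677G. As lower in Y641F the exact test called 8 and DESeq2 7 of this class, and 7 and 6 of the inorganic ion carriers. The class also had low levels, with a median of 5.10 CPM in WT beside 24.5 over all genes.

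**Figure D2:**
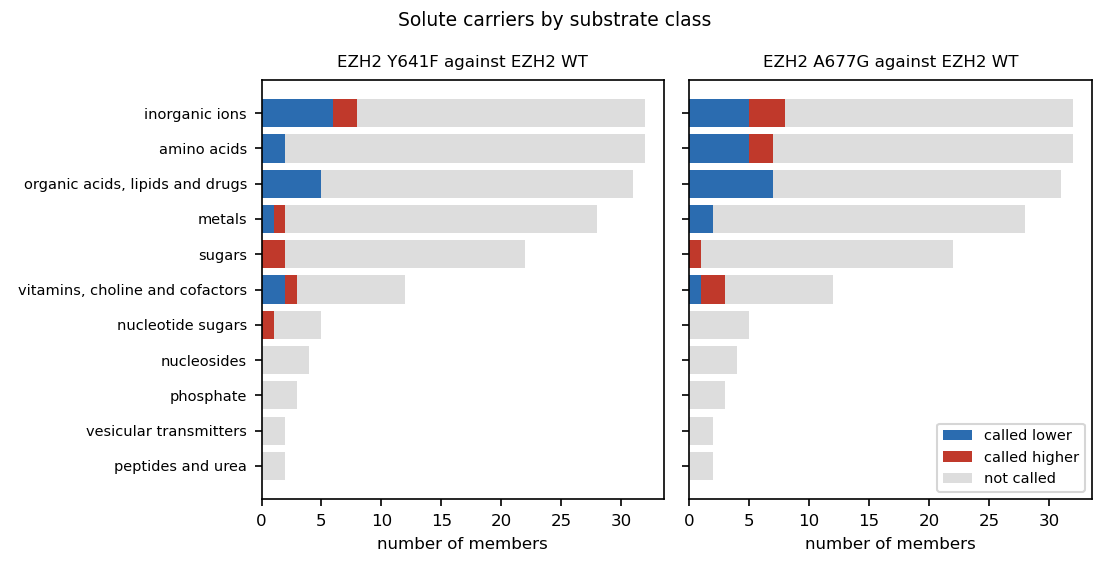
Number of solute carriers called lower, called higher and not called against WT (horizontal axis) in each substrate class, for Y641F on the left and A677G on the right. By this test 6 of 32 inorganic ion carriers and 5 of 31 organic acid, lipid and drug carriers fell in Y641F, and 5 and 7 in A677G, and no sugar carrier passed the test as lower in either line. Of all genes, 5.59% fell in Y641F and 6.48% in A677G. Classes were assigned by SLC family number.

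Among the monocarboxylate transporters, SLC16, 3 members fell in both GOF lines, SLC16A7, SLC16A9 and SLC16A14. SLC16A7, a high-affinity carrier of pyruvate and lactate, was at 6.98, 8.34 and 8.87 CPM in WT, 5.16, 3.78 and 4.49 in Y641F, 3.72, 4.18 and 4.55 in A677G and 5.11, 6.32 and 6.89 in LOF. GOF replicates were all below WT. LOF replicates were also all below WT, with the lowest of them below the highest GOF replicate. The log2 fold changes were -0.84 ± 0.14 (SE, adjusted p = 5.48e-05), -0.96 ± 0.141 (SE, adjusted p = 8.14e-06) and, in LOF, -0.40 ± 0.138 (SE, adjusted p = 0.327) by edgeR.

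SLC16A9, linked to carnitine transport, was at 18.02, 17.96 and 16.6 CPM in WT, 10.8, 10.7 and 11.4 in Y641F, 12.97, 13.5 and 11.2 in A677G and 18.6, 17.8 and 17.3 in LOF. The 6 GOF replicates were all below the 6 others. On the log2 scale the changes were -0.67 ± 0.0844 (SE, adjusted p = 5.09e-07) and -0.48 ± 0.0835 (SE, adjusted p = 0.000107) by edgeR. SLC16A14, an orphan carrier, was at 10.2 ± 0.867 CPM in WT (mean and SD, n = 3), 7.09 ± 1.05 in Y641F and 7.87 ± 1.28 in A677G, with log2 fold changes of -0.52 and -0.38 (edgeR adjusted p = 0.00292 and 0.0366), and 1 A677G replicate overlapped with WT. Its call in A677G was lost without replicate 1 or 2 of WT or replicate 1 or 3 of A677G, with an adjusted p of up to 0.221.

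The most abundant member of the family did not pass the test in any line. SLC16A1, the main lactate carrier of most cells and the member with the highest level per length in WT (145 ± 3.18 CPM per kb of the annotated transcript, mean and SD, n = 3), was at 543 ± 11.9 CPM in WT, 549.6 ± 22.4 in Y641F and 551 ± 16.5 in A677G. Its log2 fold change had a 95% interval of -0.05 to 0.09 in Y641F and -0.05 to 0.09 in A677G. Another 5 members, SLC16A4, SLC16A6, SLC16A8, SLC16A10 and SLC16A13, had log2 fold changes between -0.49 and 0.78 in the GOF lines, and none was called.

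**Figure D3:**
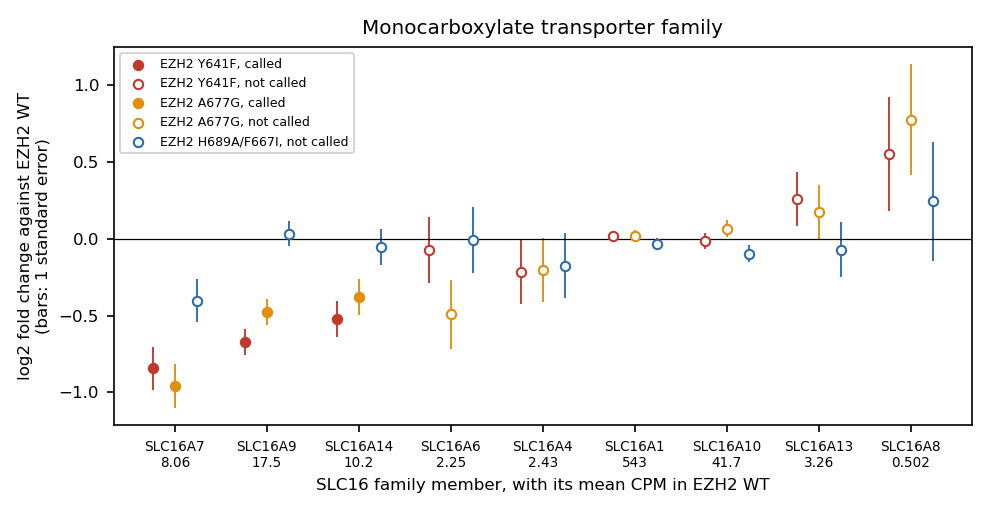
Log2 fold change against WT (vertical axis) of 9 SLC16 members in the 3 mutant lines (H689A/F667I is LOF), with the mean CPM in WT under each name. Bars are 1 standard error and filled points passed the test; SLC16A7, SLC16A9 and SLC16A14 are filled in both GOF lines, and SLC16A1 lies at 0.02 in both.

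In the fatty acid family SLC27, SLC27A2, a very-long-chain acyl-CoA synthetase, fell in Y641F beside SLC27A6. It was at 12.4, 11.4 and 13.1 CPM in WT, 8.99, 10.6 and 9.55 in Y641F, 9.31, 10.1 and 11.4 in A677G and 12.6, 13.9 and 12.6 in LOF. The GOF replicates were all below those of WT and LOF, by the narrowest margin in replicate 3 of A677G, and the log2 fold change was -0.34 ± 0.0983 (SE, adjusted p = 0.0248) in Y641F and -0.26 ± 0.0979 (SE, adjusted p = 0.0956) in A677G by edgeR. The call was lost without replicate 1 or 3 of WT or of Y641F, where the adjusted p reached 0.118.

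Among the organic cation and anion carriers, SLC22, 1 of 7 members fell, in A677G, where 6.48% of all genes fell. SLC22A15 was at 3.03, 3.21 and 3.5 CPM in WT, 2.78, 1.97 and 1.75 in Y641F, 1.82, 2.04 and 2 in A677G and 3.52, 3.18 and 3.94 in LOF. The GOF replicates were all below the others, and its log2 fold change was -0.58 ± 0.191 (SE, adjusted p = 0.0554) and -0.73 ± 0.194 (SE, adjusted p = 0.011) by edgeR. SLC10A7, of the bile acid cotransporter family, fell in A677G from 19.2 ± 1.04 to 15.8 ± 0.656 CPM (SD, n = 3), a log2 fold change of -0.28 ± 0.0798 (SE, adjusted p = 0.0201) by edgeR. It was lost without replicate 3 of WT or replicate 2 or 3 of A677G, where the adjusted p reached 0.114, and SLC22A15 without replicate 3 of WT or replicate 1 of A677G, where it reached 0.0608.

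Carriers of inorganic ions moved in both directions. Of 32 members, 6 fell and 2 rose in Y641F, and 5 fell and 3 rose in A677G, with median log2 fold changes of 0.0014 and -0.087. Over all genes, 5.59% fell and 2.09% rose in Y641F, and 6.48% and 2.07% in A677G. In the bicarbonate family, SLC4, 2 of 7 members fell and 1 rose in each GOF line.

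SLC4A4, the electrogenic sodium bicarbonate cotransporter, was at 9.9, 9.63 and 12.2 CPM in WT, 7.7, 7.49 and 7.54 in Y641F, 7.67, 7.18 and 7.76 in A677G and 10.5, 9.83 and 10.1 in LOF. The 6 GOF replicates were all below the 6 others, and the log2 fold changes were -0.48 ± 0.105 (SE, adjusted p = 0.00221) and -0.48 ± 0.105 (SE, adjusted p = 0.00163) by edgeR. SLC4A3, a chloride-bicarbonate exchanger, was at 2.62, 2.48 and 2.75 CPM in WT, 1.4, 1.6 and 1.18 in Y641F, 1.64, 1.01 and 1.73 in A677G and 2.11, 2.14 and 2.42 in LOF. Its log2 fold changes were -0.91 ± 0.223 (SE, adjusted p = 0.00661) and -0.84 ± 0.222 (SE, adjusted p = 0.0106) by edgeR, and the call in A677G was lost without that line's replicate 2, at an adjusted p of 0.110.

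SLC4A7, a second sodium bicarbonate cotransporter, rose from 79.2 ± 2.79 CPM in WT to 87.3 ± 2.61 in Y641F and 86.7 ± 2.4 in A677G (SD, n = 3). These are log2 fold changes of 0.14 and 0.13 (edgeR adjusted p = 0.0318 and 0.0437). With upper-quartile scaling, with the GC trend removed or without replicate 1 or 2 of WT neither call passed the test.

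Besides SLC9A2, the sodium-proton exchanger family had 1 more fallen member of 8, the endosomal exchanger SLC9A9, which went from 2.28 ± 0.283 CPM to 1.38 ± 0.187 in A677G, a log2 fold change of -0.73 ± 0.237 (SE, adjusted p = 0.0473) by edgeR. That call was lost without any 1 of 9 of the 12 replicates and with replicate number as a block.

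The sodium-calcium exchanger SLC8A1 was at 21.3, 20.2 and 19.8 CPM in WT, 18.5, 13.5 and 15.4 in Y641F, 18.3, 16.8 and 18.8 in A677G and 20.4, 23.5 and 21.5 in LOF. Both GOF lines lay below the others without overlap, and its fall passed the test in Y641F, at -0.37 ± 0.0867 (SE, adjusted p = 0.0046) against -0.19 ± 0.0859 (SE, adjusted p = 0.204) in A677G by edgeR. Without replicate 2 of Y641F the adjusted p was 0.0610.

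The potassium-chloride cotransporters of SLC12 went both ways. SLC12A4 was at 12.6, 12.7 and 12.5 CPM in WT, 15, 15.2 and 16.9 in Y641F, 15.5, 16.2 and 16.6 in A677G and 14.3, 14.3 and 16.7 in LOF. All mutant replicates, LOF included, were above all WT replicates, which spanned less than those of any other line. The edgeR log2 fold changes were 0.32 ± 0.0841 (SE, adjusted p = 0.0129), 0.35 ± 0.0841 (SE, adjusted p = 0.00426) and, in LOF, 0.26 ± 0.0852 (SE, adjusted p = 0.304), and the call in Y641F was lost without that line's replicate 3, at an adjusted p of 0.0961. SLC12A7 fell in Y641F from 23.2 ± 0.858 to 19.97 ± 0.724 CPM (SD, n = 3), a log2 fold change of -0.22 ± 0.0697 (SE, adjusted p = 0.0452) by edgeR. That call was lost without any 1 of 9 replicates and in 5 of the 11 settings with all replicates. These were library totals, only the groups compared, replicate number as a block, the GC trend removed, and the last 2 together. SLC26A11, a sulfate transporter, rose in A677G from 13.5 ± 0.376 to 16.5 ± 1.13 CPM, a log2 fold change of 0.29 ± 0.0811 (SE, adjusted p = 0.018) by edgeR. Without replicate 1 of WT, or replicate 1 or 3 of A677G, its adjusted p reached 0.111.

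**Figure D4:**
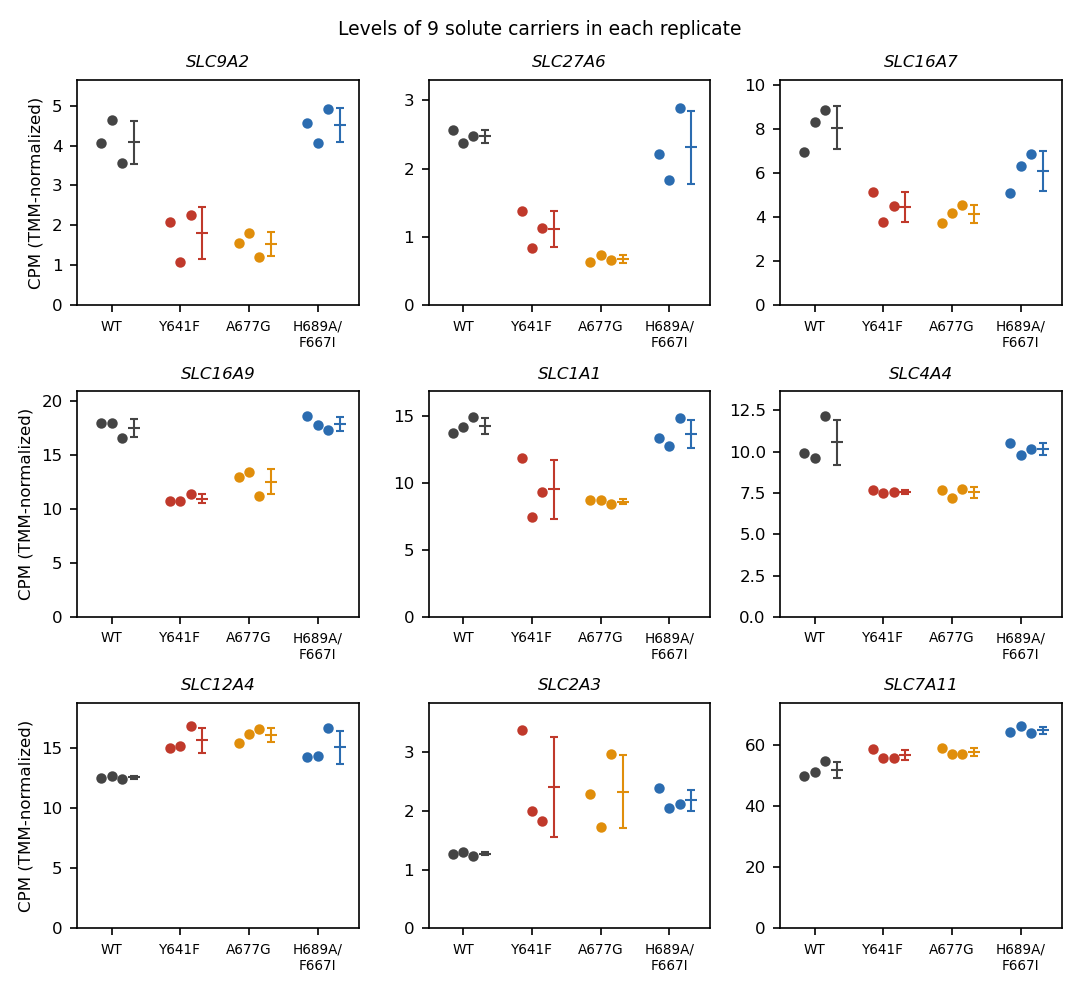
TMM-normalized CPM (vertical axis, from 0) of 9 solute carriers in each of the 12 replicates, with the mean and SD (n = 3) beside each line; H689A/F667I is LOF. In SLC9A2, SLC27A6, SLC16A9, SLC1A1 and SLC4A4 the 6 GOF replicates lie below all others; in SLC16A7 they lie below WT; SLC12A4, SLC2A3 and SLC7A11 lie above WT in every mutant replicate.

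Amino acid carriers include 3 of the 5 members with the highest level per length, SLC1A5, SLC3A2 and SLC38A2. Of 32 amino acid carriers, 2 fell and 0 rose in Y641F, and 5 fell and 2 rose in A677G (edgeR). The shares over all genes were 5.59% and 2.09% in Y641F, and 6.48% and 2.07% in A677G. At an unadjusted p under 0.05, 2 of these carriers were higher in Y641F (7.85% of all genes), and DESeq2 and the exact test also called 0 higher there. SLC1A1, a carrier of glutamate and cysteine, was at 13.7, 14.2 and 14.9 CPM in WT, 11.8, 7.43 and 9.29 in Y641F, 8.68, 8.72 and 8.39 in A677G and 13.4, 12.7 and 14.8 in LOF. The GOF replicates were all below the others, replicate 1 of Y641F being the closest, and the log2 fold changes were -0.58 ± 0.11 (SE, adjusted p = 0.000392) and -0.73 ± 0.111 (SE, adjusted p = 1.37e-05) by edgeR.

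SLC7A5, the light chain of the main leucine transporter, was at 254, 249.8 and 243 CPM in WT, 202, 233 and 221 in Y641F, 229, 225 and 230.4 in A677G and 229.9, 234 and 235 in LOF. All mutant replicates were below all WT replicates, and the log2 fold changes were -0.19 ± 0.0398 (SE, adjusted p = 0.00156), -0.13 ± 0.0397 (SE, adjusted p = 0.0351) and, in LOF, -0.10 ± 0.0398 (SE, adjusted p = 0.464) by edgeR. The call in A677G was lost without replicate 1 or 2 of WT or any replicate of A677G, where the adjusted p reached 0.142. Its near-identical pseudogenes SLC7A5P1 and SLC7A5P2, at 3.58 ± 0.377 and 6.75 ± 0.38 CPM in WT, can share reads with it. Its heavy chain SLC3A2, at 94.4 ± 1.14 CPM per kb in WT, had a log2 fold change of -0.04 (95% interval -0.13 to 0.04) in Y641F and 0.00 (-0.08 to 0.09) in A677G.

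In A677G the cationic amino acid carrier SLC7A3 fell from 5.93 ± 0.579 to 4.04 ± 0.407 CPM (SD, n = 3), a log2 fold change of -0.56 ± 0.147 (SE, adjusted p = 0.0101) by edgeR. The light chain SLC7A8 fell there from 7.8 ± 1.16 to 5.73 ± 0.394 CPM, and the glutamine carrier SLC38A1 from 325 ± 10.7 to 297 ± 8.46 CPM, with log2 fold changes of -0.45 ± 0.13 (SE, adjusted p = 0.0218) and -0.13 ± 0.037 (SE, adjusted p = 0.0246) by edgeR. The leucine carrier SLC43A2 rose from 11.8 ± 0.257 to 14.3 ± 1.14 CPM, a log2 fold change of 0.28 ± 0.0856 (SE, adjusted p = 0.0337) by edgeR. Each of these 4 calls was lost in some fits without 1 replicate of WT or A677G, and over all other fits the adjusted p reached 0.0818, 0.142, 0.159 and 0.185. SLC1A5 and SLC38A2, both glutamine carriers and among the 5 members with the highest level per length (121 ± 2.36 and 60.3 ± 2.24 CPM per kb in WT), were called in no comparison.

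SLC7A11 was the only member called in LOF, where 1 member rose and 0 fell, beside 0.14% and 0.161% of all genes. At an unadjusted p under 0.05, 5 members were higher and 8 lower in that line, or 2.89% and 4.62%, beside 4.2% and 4.1% of all genes. DESeq2 and the exact test gave the same counts of 1 and 0. SLC7A11, the cystine-glutamate exchanger that supplies cysteine for glutathione, was at 49.7, 51.1 and 54.8 CPM in WT, 58.6, 55.7 and 55.7 in Y641F, 59.1, 56.9 and 57.1 in A677G and 64.1, 66.1 and 63.9 in LOF. LOF replicates were all above the GOF replicates, and the GOF replicates all above those of WT. The log2 fold change was 0.32 ± 0.0477 (SE, adjusted p = 0.000551) in LOF, 0.13 ± 0.0478 (SE, adjusted p = 0.0982) in Y641F and 0.15 ± 0.0477 (SE, adjusted p = 0.0337) in A677G by edgeR. The LOF call was kept in all 23 other fits, while that in A677G was lost in 9 of them, with an adjusted p of up to 0.204. An antisense gene of SLC7A11 was in the table and not tested, and since the sources used here do not state whether counting used strand, their reads cannot be told apart.

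Of 28 metal carriers, 1 fell and 1 rose in Y641F, and 2 fell and 0 rose in A677G (edgeR). Over all genes these shares were 5.59% and 2.09% in Y641F, and 6.48% and 2.07% in A677G. At an unadjusted p under 0.05, 2 were higher in A677G (8.13% of all genes), and DESeq2 and the exact test also called 0 higher. Against LOF, 4 of the 28 were lower in the mean of the GOF lines, as were 8.75% of all genes. SLC39A8, an importer of zinc and manganese, was at 73.2, 69.2 and 72.2 CPM in WT, 71.6, 58.9 and 57.8 in Y641F, 61.05, 59.03 and 58.9 in A677G and 75.6, 72.4 and 78.9 in LOF. Replicate 1 of Y641F overlapped with WT, and the A677G replicates did not. On the log2 scale the changes were -0.19 ± 0.0558 (SE, adjusted p = 0.0292) and -0.26 ± 0.056 (SE, adjusted p = 0.00143) by edgeR, and the call in Y641F was lost in 6 of the 23 other fits, with an adjusted p of up to 0.211.

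The other 10 ZIP importers of the SLC39 family were not called, among them SLC39A1, at 68.6 ± 1.97 CPM per kb in WT. SLC30A10, a manganese exporter, fell in A677G from 2.08 ± 0.289 to 1.2 ± 0.188 CPM (SD, n = 3), a log2 fold change of -0.80 ± 0.252 (SE, adjusted p = 0.0397) by edgeR, and its call was lost in 6 of the 12 fits without a replicate. SLC11A2, the proton-coupled iron importer, was at 48.1 ± 4.13 CPM in Y641F against 42.4 ± 1.55 in WT, a log2 fold change of 0.18 ± 0.0557 (SE, adjusted p = 0.035) by edgeR, with overlapping replicates and a call lost in 7 of the 23 other fits.

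Of 22 sugar carriers, 2 rose in Y641F and 1 in A677G, and 0 fell in either line (edgeR). Of all genes, 2.09% and 2.07% rose and 5.59% and 6.48% fell in these lines. At an unadjusted p under 0.05, 1 was lower in Y641F and 3 in A677G (11.4% and 12.3% of all genes), and DESeq2 and the exact test also called 0 lower. SLC2A3, the high-affinity glucose transporter of neurons, had the largest rise among members called in the GOF lines. It was at 1.27, 1.29 and 1.24 CPM in WT, 3.38, 2 and 1.82 in Y641F, 2.29, 1.72 and 2.96 in A677G and 2.38, 2.04 and 2.11 in LOF. Every mutant replicate of the 3 lines was above every WT replicate. Its log2 fold changes were 0.92 ± 0.244 (SE, adjusted p = 0.0131), 0.87 ± 0.245 (SE, adjusted p = 0.0189) and, in LOF, 0.78 ± 0.249 (SE, adjusted p = 0.288) by edgeR. In Y641F the call was lost without replicate 1 of that line or replicate 2 of WT (adjusted p up to 0.166), and in A677G without any replicate of WT or replicate 1 or 3 of A677G (up to 0.161). Its near-identical gene SLC2A14 was not analysed here, and reads of the pair may have been counted together.

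The proton myo-inositol cotransporter SLC2A13 was at 30.2 ± 1.67 CPM in WT, 35.2 ± 1.64 in Y641F and 34.4 ± 2.3 in A677G, with log2 fold changes of 0.22 ± 0.0623 (SE, adjusted p = 0.0189) and 0.19 ± 0.0624 (SE, adjusted p = 0.053) by edgeR. The call was lost without replicate 1 of WT or replicate 3 of Y641F, with an adjusted p of up to 0.156. SLC2A1, the basal glucose transporter, was at 51.2 ± 2.55 CPM in WT, with a 95% interval for its log2 fold change of -0.11 to 0.11 in Y641F and -0.03 to 0.19 in A677G. SLC35A3, the Golgi carrier of UDP-N-acetylglucosamine, rose in Y641F from 42.97 ± 2.24 to 50.6 ± 1.64 CPM, a log2 fold change of 0.24 ± 0.0535 (SE, adjusted p = 0.00283) by edgeR, and was called in all 23 other fits.

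Of 12 carriers of vitamins, choline and cofactors, 2 fell and 1 rose in Y641F, and 1 fell and 2 rose in A677G. Among all genes, 5.59% fell and 2.09% rose in Y641F, and 6.48% and 2.07% in A677G. SLC44A2, a choline transporter-like protein, was at 29.96, 29.5 and 28.99 CPM in WT, 35.2, 32.2 and 34.1 in Y641F, 36.1, 33.1 and 34.2 in A677G and 28.8, 30.6 and 30.4 in LOF. The 6 GOF replicates were all above the 6 others. The edgeR log2 fold changes were 0.20 ± 0.0584 (SE, adjusted p = 0.0267) and 0.23 ± 0.0584 (SE, adjusted p = 0.00938), and the calls were lost in 6 and 1 of the 23 other fits, with adjusted p-values up to 0.0924 and 0.0876.

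Its relative SLC44A3 fell in Y641F from 2.58 ± 0.46 to 1.52 ± 0.125 CPM (SD, n = 3), and the lysosomal carrier SLC46A3 from 6.76 ± 0.831 to 4.95 ± 0.128 CPM. Their log2 fold changes were -0.76 ± 0.216 (SE, adjusted p = 0.0215) and -0.45 ± 0.13 (SE, adjusted p = 0.0254) by edgeR. The thiamine transporter SLC19A3 fell in A677G from 3.79 ± 0.303 to 2.45 ± 0.0603 CPM, a log2 fold change of -0.63 ± 0.177 (SE, adjusted p = 0.0177) by edgeR. These 3 calls were lost without 1 replicate of WT or of the mutant line, with adjusted p-values up to 0.187, 0.168 and 0.0744.

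SLC23A2, the sodium-dependent ascorbate transporter, was at 73.3, 73.3 and 71.5 CPM in WT, 77.3, 77.8 and 77.9 in Y641F, 79.7, 83.1 and 77.8 in A677G and 76.8, 74.5 and 77.6 in LOF. All mutant replicates were above all WT replicates by a small margin. The log2 fold changes were 0.10 ± 0.0422 (SE, adjusted p = 0.192), 0.14 ± 0.0421 (SE, adjusted p = 0.0256) and, in LOF, 0.07 ± 0.0425 (SE, adjusted p = 0.71) by edgeR, and the call in A677G was lost without any 1 replicate of WT, without replicate 1 or 2 of A677G and with upper-quartile scaling, with an adjusted p of up to 0.171.

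Among the 4 members of the nucleoside class, 3 of phosphate, 2 of vesicular transmitters and 2 of peptides and urea, 0 were called against WT by edgeR, DESeq2 or the exact test. At an unadjusted p under 0.05 there were also 0. Classes were assigned by whole family, so a member need not carry the substrate its class is named for. The 2 of peptides and urea are of the peptide family SLC15, and no urea carrier was measured. Of the 44 families, 17 had a member that fell in a GOF line, 10 had one that rose, 4 had both and 21 had none.

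No member passed the test of the difference between the 2 GOF lines. Y641F against A677G gave 0 members lower and 0 higher by edgeR, beside 0.014% and 0.0701% of all genes. At an unadjusted p under 0.05, 6 members were lower and 9 higher, or 3.47% and 5.2%, beside 3.21% and 3.69% of all genes. DESeq2 and the exact test also called 0. A call made in 1 GOF line and missed in the other therefore does not show that the lines differ. The 95% interval of that difference was -0.35 to -0.01 on the log2 scale for SLC8A1, -0.24 to 0.77 for SLC30A10 and -0.06 to 0.52 for SLC7A3. With genes at 0 kept in the fit, 1 member passed, SLC10A3, at a log2 fold change of -0.32 (edgeR adjusted p = 0.0482), and it was named after its value was seen.

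The mean of the 2 GOF lines was also compared with LOF, a contrast in which WT is not a group compared. The WT samples still entered the shared estimate of the spread behind its p-values. By edgeR 24 members were lower and 4 higher in the GOF lines, or 13.9% and 2.31% of the members beside 8.75% and 3.81% of all genes. With only the groups compared, 22 members were lower and 3 higher, beside 1185 and 505 of all genes. Without replicate 2 or 3 of LOF the lower members were 16 and 17, and without single replicates the higher members numbered 1 to 7. Of the members that fell in a GOF line against WT, SLC1A1, SLC4A3, SLC4A4, SLC7A3, SLC8A1, SLC9A2, SLC9A9, SLC16A7, SLC16A9, SLC16A14, SLC22A15, SLC24A4, SLC27A2, SLC27A6, SLC30A10 and SLC39A8 were lower here too, and the GOF samples are the same in both contrasts. The call of SLC9A9 against LOF was lost in 6 of the 12 fits without a replicate and with only the groups compared (edgeR adjusted p up to 0.266). Without a replicate, SLC4A3 was lost in 4 of these fits (up to 0.111) and SLC30A10 in 2 (up to 0.208). SLC24A4 and SLC16A7 were lost in 1 each (0.110 and 0.0651), and the others were called in every fit. SLC9A2 differed by -1.43 ± 0.173 (SE, adjusted p = 1.35e-07), SLC27A6 by -1.40 ± 0.21 (SE, adjusted p = 6.05e-06) and SLC16A9 by -0.61 ± 0.0714 (SE, adjusted p = 6.82e-08) on the log2 scale by edgeR.

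Another 8 members were lower in the GOF lines than in LOF without being called lower against WT, and these were named after their values were seen: SLC6A6, SLC7A11, SLC22A4, SLC22A17, SLC37A1, SLC38A3, SLC40A1 and SLC41A2. The call of SLC6A6 was lost in 10 of the 22 other fits, DESeq2 among them, with an adjusted p of up to 0.376. Those of SLC22A17 and SLC37A1 were lost in 2 fits each without a replicate and that of SLC40A1 in 1, with edgeR adjusted p-values up to 0.107, 0.0659 and 0.0885. SLC22A4, a carrier of ergothioneine, was at 0.677, 0.932 and 0.784 CPM in WT, 0.357, 0.21 and 0.544 in Y641F, 0.337, 0.393 and 0.384 in A677G and 0.812, 0.764 and 0.993 in LOF. The 6 GOF replicates were all below the 6 others, and the difference from LOF was -1.19 ± 0.307 (SE, adjusted p = 0.00632) on the log2 scale by edgeR. Against WT its log2 fold changes were -1.09 and -1.10 (edgeR adjusted p = 0.0611 and 0.0545). Its neighbour on chromosome 5, the carnitine carrier SLC22A5, was at 24.2 ± 0.842 CPM in WT, 23.9 ± 1.01 in Y641F and 23.1 ± 1.55 in A677G and was not called. SLC40A1, the iron exporter ferroportin, was at 3.57 ± 0.504 and 3.41 ± 0.437 CPM in the GOF lines and 5.01 ± 0.327 in LOF, and WT, at 4.18 ± 1.15, overlapped with both. The 4 higher members were SLC6A16, SLC7A6, SLC26A2 and SLC44A2, and of these only SLC44A2 was also called against WT. The call of SLC6A16 was lost in 10 of the 22 other fits, with an adjusted p of up to 0.347. With upper-quartile scaling those of SLC26A2 and SLC7A6 were lost too. Without a replicate, SLC26A2 was lost in 5 of 12 fits, SLC7A6 in 4 and SLC44A2 in 1, with edgeR adjusted p-values up to 0.0922, 0.158 and 0.0758.

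The 25 carriers that fell in either GOF line had a median of 8.06 CPM in WT, the 11 that rose 30.2 and the 137 called in neither 16.1. Between 5 and 20 CPM, 15.6% of 45 members fell in Y641F and 17.8% in A677G, beside 9.31% and 11.1% of all genes at that level. Between 20 and 100 CPM the shares were 5.77% and 3.85% of 52 members, beside 3.99% and 4.3% of genes. Under 5 CPM they were 9.62% and 15.4% of 52 members beside 7.21% and 8.52% of genes, and above 100 CPM 4.17% and 8.33% of 24 members beside 1.84% and 2.26%. The fallen members also had longer genes, with a median span of 91803 bp against 34509 bp in the uncalled members, and lower transcript GC, 43.9% against 52.6%. The part of level, length and GC in the calls was not tested. With each sample's GC trend removed, 20 members fell and 6 rose in each of the 2 GOF lines, while 841 and 996 of all genes fell and 294 and 323 rose.

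Of 20 carriers typical of the nephron 6 were analysed here, and 1, SLC4A4, was called, lower in both GOF lines. Of 20 neurotransmitter carriers 7 were analysed, and 1, SLC1A1, was called, lower in both. All 10 carriers of a list tied to the amino acid response were measured, and 1 fell in Y641F, 2 fell and 1 rose in A677G and 1 rose in LOF, from SLC7A3, SLC7A5 and SLC7A11. For comparison with these lists, 5.59% of all genes fell in Y641F and 6.48% in A677G, and 2.07% rose in A677G and 0.14% in LOF.

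Other transporter genes were counted beside the members. Of 42 SLC25 mitochondrial carriers, 3 fell in Y641F and 1 in A677G, or 7.14% and 2.38%, beside 5.59% and 6.48% of all genes. Of 31 ABC pumps, 3 and 5 fell, or 9.68% and 16.1%, among them the drug efflux pump ABCB1, at 20.8 ± 1.46 CPM in WT, 11.7 ± 1.56 in Y641F and 9.15 ± 0.853 in A677G. Of 7 SLCO organic anion transporters 1, SLCO3A1, fell in both lines. Its levels were low, at 0.839 ± 0.171 CPM in WT, 0.276 ± 0.0618 in Y641F, 0.242 ± 0.225 in A677G and 0.359 ± 0.219 in LOF. LOF replicates were also all below WT, at a log2 fold change of -1.20 (edgeR adjusted p = 0.392). The GOF lines were not called against LOF (edgeR adjusted p = 0.566).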

How the data were processed

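RNA-Seq of 12 samples from 4 HEK293T lines was used. Per the study's methods and the submitters' processing notes, the authors trimmed reads with Trim Galore 0.6.5, aligned them to GRCh38 with STAR 2.7.9a and quantified them with Salmon 1.2.0. The deposited file holds counts by symbol as whole numbers with no normalization by the authors, and how Salmon estimates became counts is not given in the sources used here.

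Of 14438 genes, 175 were at 0 in all replicates of a line and were left out, and 14263 were tested with edgeR 4.0.16 in R 4.3.3 (TMM, quasi-likelihood test, 1 coefficient per line, Benjamini-Hochberg adjusted p under 0.05). The SE is the log2 fold change divided by the square root of F. CPM are TMM-normalized. Alternatives included the study's exact test and DESeq2 1.42.0, and closing remarks give their effect. Procedures were tested on simulated data. Positions are from GENCODE on GRCh38 (172 members matched by name, 1 by synonym). The members, lists and named genes were chosen with earlier results of these data known. Genes were named by a rule: per mutant, called members without replicate overlap, up to 12 lower and 8 higher by size, those called in both GOF lines or in the LOF line, the 5 highest per length in WT, SLC23A2 and EZH2, and called members of each family. Same-numbered replicates did not vary together (correlations of -0.056 to 0.050 over 18 pairs), and no 2 replicates agreed within sampling noise. A few genes that the rule names are not reported here.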

Additional observations from a re-analysis of the deposited data

How the results depend on the processing

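None of the 80 member calls changed sign in any of 11 alternative settings or 12 fits without 1 replicate. The setting with no filter on low counts equalled the reported fit, as the filter removed 0 genes. Fits without a replicate of a line outside a comparison kept all samples compared. Calls kept in every fit were therefore not checked by that many independent fits. All alternatives were run, except that edgeR's exact test gives no value for the mean of the GOF lines. Among the 11 settings that left out no replicate, counts of members moved by over 1.5 times under few. In most of the 12 fits without 1 replicate, at least 1 count moved by more than that, with the ranges given below. Higher members in Y641F were 4 with only the groups compared (7 in the reported fit). With upper-quartile scaling, higher members were 4 in A677G (8 reported) and 1 in the GOF lines against LOF (4 reported), and the share of member calls that were lower went from 71.4% to 84.0% and from 85.7% to 96.4%, while that of all calls went from 75.8% to 84.3% and from 69.6% to 79.4%. With genes at 0 kept, 1 member was lower in Y641F against A677G (0 reported). EZH2 in A677G had a log2 fold change of 0.113 with upper-quartile scaling and 0.126 with library totals, past the threshold in neither. The cause of these shifts was not tested.

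Without 1 replicate, members lower and higher ranged from 10 to 21 and 2 to 9 in Y641F, from 13 to 21 and 2 to 9 in A677G, and from 16 to 26 and 1 to 7 in the GOF lines against LOF, while EZH2 in A677G ranged from 0.0962 to 0.169. Of 23 member calls in Y641F and 28 in A677G, 10 each held in every fit, as did 15 of 28 against LOF and the 1 in LOF.

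Replicate numbers only name samples here. With replicate number as a block, 15 members were lower and 7 higher in Y641F, 19 and 9 in A677G, 0 and 1 in LOF, and 24 and 4 in the GOF lines against LOF. In 0 of 12 samples was the best correlation with the same number in every other line. Depth limits the lowest members most: SLC16A8, at 0.502 CPM in WT, had a standard error of 0.369 on the log2 scale in Y641F. Passing the test takes several standard errors, so only changes well above that size could be detected in it.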
